A study of Mus musculus with 30 samples.

Results

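Mouse embryonic fibroblasts that had received a Prrx1 plasmid were compared with fibroblasts that had received a control plasmid, by bulk mRNA sequencing. The 6 libraries of this comparison, out of 30 in the series, were chosen by their sample titles: 3 are titled Prrx1 transfection and 3 are the control transfection that the Prrx1 and Snai1 experiments share. All were made from NIH3T3-CG cells, a variant of the NIH3T3 embryonic fibroblast line whose suffix the labels do not explain; the series studies the Hedgehog response of these cells. The other libraries used here for contrast were 3 from cells transfected with a Snai1 plasmid, 3 from Prrx1-transduced cells given doxycycline and 3 from Prrx1-transduced cells without doxycycline. Levels of a few transcripts are also given for the Srebf2, Egr1 and Jun transfections and their controls. An alternative fit used all 30 libraries. The labels do not give the promoter or dose of the plasmids, the time after transfection, the share of cells that took up plasmid, any sorting, or whether the 3 replicates came from separate cultures. The p-values given here therefore judge group differences against the spread among these libraries, and that spread may be only technical.

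Prrx1 is a paired-related homeobox transcription factor of mesenchyme. It is expressed in limb bud and craniofacial mesenchyme, where it acts with its paralog Prrx2 in skeletal patterning, and it is kept in many fibroblasts. The gene makes a short and a long protein that share the homeodomain and differ at the carboxyl end through the use of an alternative exon.

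The files held kallisto estimated counts, which were summed per gene of the GENCODE M21 annotation. The Prrx1 libraries held 18020141 to 20638309 estimated counts and the control libraries 19574031 to 20961571. The fibroblast markers Col1a1 (1660 to 1990 CPM, estimated counts scaled for library size, in Prrx1 libraries and 1980 to 2010 in controls), Col1a2, Pdgfra, Thy1 and Vim were abundant in all 6. Defining markers of epithelium (Cdh1, Epcam), keratinocytes (Krt5, Krt14), fat (Adipoq, Pparg), cartilage and bone (Acan, Ibsp), muscle (Myod1, Myog) and immune cells (Ptprc) were each under 0.5 CPM in all 6. The endothelial genes Pecam1 and Cdh5 lay between 1.31 and 3.15 CPM and the neuronal genes Tubb3 and Snap25 between 2.20 and 16.0 CPM, with overlapping groups. The neural marker Rbfox3 did not overlap, at 0.618 to 0.812 CPM in the Prrx1 libraries and 0 in every control. Nor did the keratinocyte marker Krt5, at 0.112 to 0.339 CPM in the Prrx1 libraries and 0 in every control. In bulk RNA, fewer cells of a kind and less RNA per cell cannot be told apart.

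Control replicate 1 stood apart from the other libraries. In 5470 of 13110 genes (41.7%) its level lay outside the range of the other 8 libraries of the Prrx1 and Snai1 experiment, against 4492 genes (34.3%) for control replicate 2 and 2800 (21.4%) for control replicate 3. The 3 Prrx1 libraries lay outside the others in 14.2% to 23.4% of genes. On the third principal component of the 2000 most variable genes control replicate 1 scored 26, while control replicates 2 and 3 scored -13.1 and -10.6 and no other library exceeded 5.9. Deviations from the mean of the libraries went with base composition, in opposite directions among the controls. Across genes their rank correlation with GC content was 0.35 in control replicate 1 but -0.44 and -0.43 in control replicates 2 and 3, and it was -0.16 to 0.06 in the Prrx1 libraries and 0.156 to 0.356 in the Snai1 libraries. By this measure control replicate 1 was like the Snai1 libraries, and control replicates 2 and 3 were the farthest from 0. For transcript length the correlations were -0.39 in control replicate 1, 0.37 and 0.34 in control replicates 2 and 3, and -0.192 to -0.0506 in the Snai1 libraries. Counts over all genes and over many of the gene lists are given below with and without control replicate 1. Most values of single genes are given only with it.

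Prrx1 itself, on the minus strand of chromosome 1 (163245119 to 163313710, mm10), was measured at 14280, 14190 and 18780 CPM in the Prrx1 libraries, against 472.0, 617.9 and 625.2 CPM in the controls. Every Prrx1 library lay far above every control. The log2 fold change was 4.78 ± 0.14 (SE, n = 3 libraries each; edgeR quasi-likelihood test, adjusted p = 2.742e-09), and 4.66 without control replicate 1. Prrx1 took 1.42%, 1.43% and 1.88% of all counts in the transfected libraries, against 0.0466%, 0.0624% and 0.063% in the controls. The Snai1-transfected cells, which received no Prrx1 plasmid, had a mean of 538.8 CPM. The paralog Prrx2 did not pass the test, with 27.2, 25.7 and 29.8 CPM in Prrx1 libraries and 26.8, 23.6 and 22.7 CPM in controls (adjusted p = 0.33 with all libraries and 0.03989 without control replicate 1).

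Which Prrx1 protein the added RNA encodes shows in the exon use. The 217-residue protein comes from transcript Prrx1-202, which holds a 72-base exon (163253977 to 163254048 on chromosome 1, mm10), and the 245-residue protein from Prrx1-201, which skips it and joins directly to the last exon. The sequences around that junction are shown because they separate the transcripts; lower case marks the 30 bases both share and capitals mark the 55 coding bases that follow, which in Prrx1-202 run to its stop codon.
Prrx1-202: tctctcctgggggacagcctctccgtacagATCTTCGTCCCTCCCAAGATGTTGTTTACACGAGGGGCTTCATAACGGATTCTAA
Prrx1-201: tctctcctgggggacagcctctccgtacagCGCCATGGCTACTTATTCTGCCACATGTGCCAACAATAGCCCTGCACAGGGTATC
The short form rose and the long form fell. Prrx1-202 was estimated at 2440, 2367 and 3093 TPM (kallisto's abundance scaled for transcript length and depth) in the Prrx1 libraries, against 47.4, 35.0 and 40.2 TPM in the controls (log2 fold change 5.98 ± 0.22, SE, adjusted p = 3.625e-05). Prrx1-205, a processed transcript with the same exon, stood at 6672, 7015 and 9220 TPM with Prrx1 plasmid and at 28.6, 87.6 and 80.8 TPM with control plasmid (log2 fold change 6.88 ± 0.40, adjusted p = 0.000847). The long form Prrx1-201 had 40.0, 46.2 and 47.2 TPM in the Prrx1 libraries, against 58.7, 102.9 and 101.6 TPM in the controls. No Prrx1 library reached a control, and the log2 fold change was -0.98 ± 0.15 (adjusted p = 0.02787), or -1.15 without control replicate 1 (adjusted p = 0.000767). Its mean in the Snai1-transfected cells was 77.6 TPM. Prrx1-204 had 32.8, 37.1 and 29.9 TPM in the Prrx1 libraries and 9.2, 20.8 and 18.9 TPM in the controls, and passed only without control replicate 1 (adjusted p = 0.078 with all libraries, 0.00522 without it).

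The 2 transcripts with the 72-base exon made up 99.2%, 99.1% and 99.4% of Prrx1 TPM with Prrx1 plasmid and 52.8%, 49.7% and 50.1% with control plasmid. The ratio of Prrx1-202 to Prrx1-201 was 61.1, 51.2 and 65.5 in the Prrx1 libraries and 0.807, 0.34 and 0.396 in the controls. Of the 31-mers of Prrx1-201, 98.6% also occur in Prrx1-202, and of those of Prrx1-205 93.5% do. The split among the 3 therefore rests on few distinguishing sequences and carries an assignment error that the deposited estimates do not give.

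**Figure D1:**
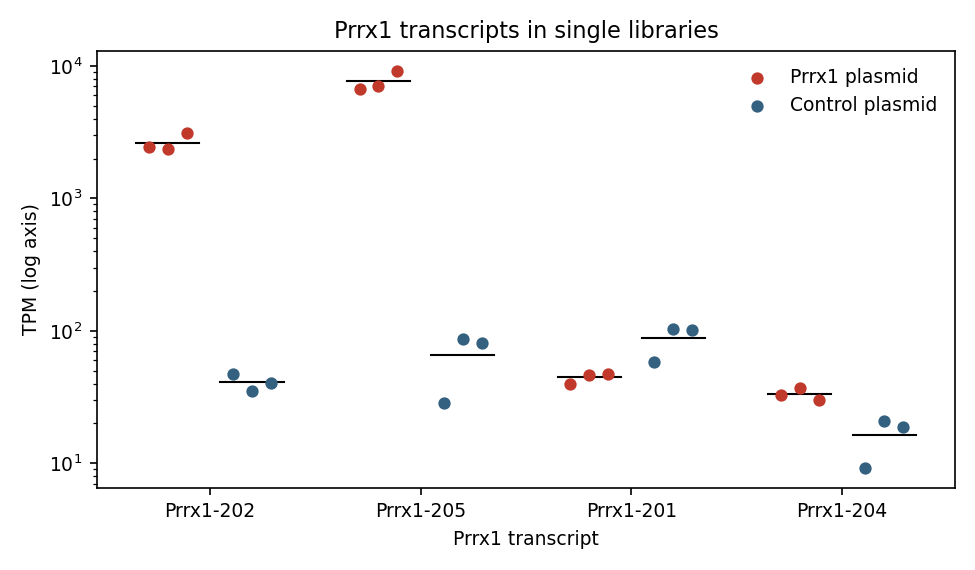
TPM of 4 Prrx1 transcripts in each library, on a log axis; points are single libraries, red for Prrx1 plasmid and blue for control plasmid, and lines are means of 3. Prrx1-202 and Prrx1-205, which hold the 72-base exon, are 2367 to 9220 TPM with Prrx1 plasmid, while the long-form transcript Prrx1-201 is 40.0 to 47.2 TPM with Prrx1 plasmid and 58.7 to 102.9 TPM with control plasmid.

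Across the 13110 genes tested, 254 rose (1.94%) and 139 fell (1.06%) with the Prrx1 plasmid at an adjusted p under 0.05, together 393 genes or 3.0%. The median log2 fold change over all genes was 0.0044. Most changes were small: 76 of the 393 exceeded 2-fold. Of the 393, 348 were protein-coding (of 12637 tested) and 44 were annotated as pseudogenes of some kind (of 471 tested), and 241 had at least 90% of their 31-mers found in no other gene (of 10203 tested). Pseudogenes and genes with shared sequence thus made up a larger part of the calls than of the genes tested. Genes below that share may trade reads with near-identical copies, so their values are uncertain. In 2509 genes (19.1%) the 3 Prrx1 libraries did not overlap the 3 controls.

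The number of calls depended strongly on control replicate 1. Without it 1472 genes rose (11.0%) and 1167 fell (8.71%), and 390 of the 393 genes were called again in the same direction. Leaving out any of the other 5 libraries left 106 to 199 genes. In the fit without control replicate 1 the fold changes went with GC content (rank correlation 0.34 across genes, against 0.13 with all libraries): the median log2 fold change was -0.143 in the tenth of genes with the lowest GC content and 0.121 in the tenth with the highest. A fit without control replicate 1 that carried GC and length offsets removed that relation (rank correlation -0.0023) and called 881 genes higher (6.58%) and 802 lower (5.99%), of which 365 were among the 393. With the offsets and all 9 libraries 641 genes were higher and 657 lower, so the share of higher genes was 49.4% in place of 64.6%. In all, 88 genes (0.671%), 59 higher and 29 lower, passed in each of the 6 fits that left out 1 library of the comparison.

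**Figure D2:**
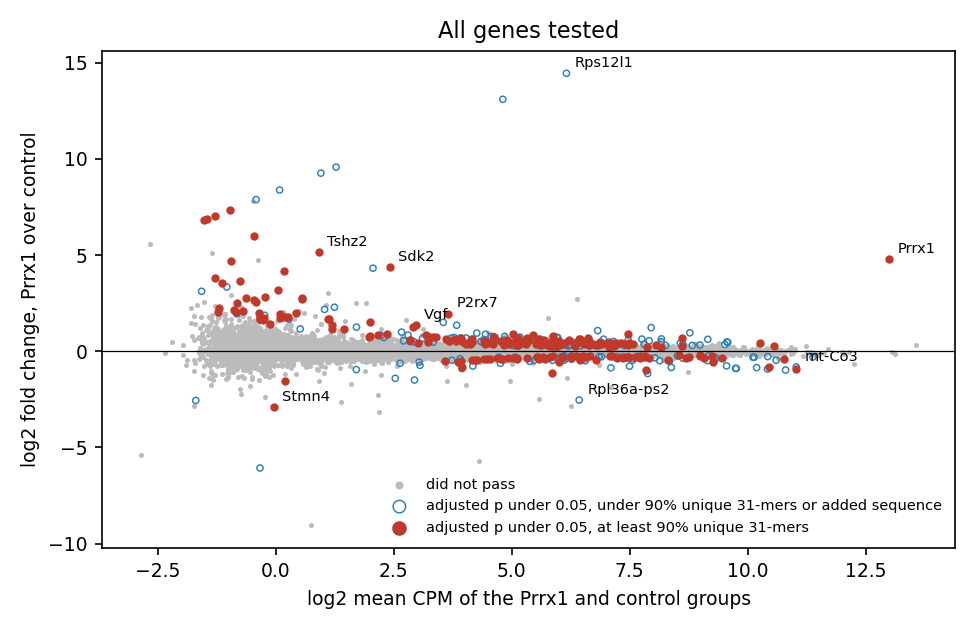
Each point is 1 of 13110 genes: the horizontal axis is log2 of the mean CPM of both groups, the vertical axis the fitted log2 fold change of Prrx1 over control plasmid. Coloured points passed an adjusted p of 0.05, filled where at least 90% of the gene's 31-mers are its own; the few genes far above the rest at low mean CPM, such as Tshz2, had almost no counts in the controls, so the height of their points depends on the prior count.

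**Figure D3:**
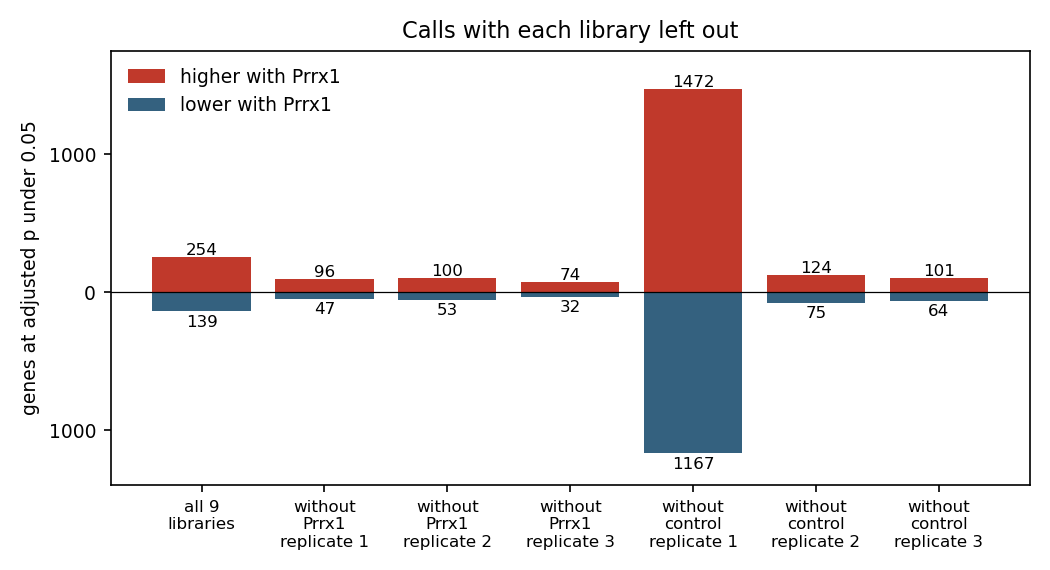
Genes called higher (red, upward) and lower (blue, downward) with Prrx1 plasmid at an adjusted p under 0.05 in the fit of all 9 libraries and in fits that leave out 1 library. The bars stay between 106 and 393 genes in total except without control replicate 1, where 1472 rose and 1167 fell.

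A direct contrast with the Snai1-transfected cells asked which genes set the Prrx1 arm apart from another transcription factor plasmid; it uses the same Prrx1 libraries as the contrast above. In it 29 genes were higher (0.221% of 13110) and 4 lower (0.0305%) with Prrx1 than with Snai1. Without control replicate 1, which enters only through the filter, the scaling and the estimate of the spread, the counts were 61 and 27. The fold changes of this contrast also went with GC content (rank correlation -0.316 across genes), and it was not fitted with GC offsets. Apart from Prrx1, the genes higher than in both other arms included Sdk2, P2rx7, Vgf, Csrnp2, Gem, Fgfr1op, Arc and Washc2. Aloxe3 and Gm20716 were higher than with Snai1 but did not pass against control plasmid. The 4 lower genes were Snai1 itself (71.0 CPM with Prrx1 and 10880 CPM with Snai1 on average), the near-identical heat shock genes Hspa1a and Hspa1b (29.9% and 31.9% unique 31-mers), and the pseudogene Rpl19-ps11.

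Sdk2, which encodes the synaptic adhesion molecule sidekick 2 (chromosome 11, 113776374 to 114067046, mm10), had 9.21, 10.3 and 10.9 CPM in the Prrx1 libraries, 0.414, 0.240 and 0.676 CPM in the Snai1 libraries and 0.421, 0.432 and 0.625 CPM in the controls. The Prrx1 libraries lay above all others, with a log2 fold change of 4.36 ± 0.25 over control (SE, adjusted p = 9.211e-07) and 4.52 over Snai1 (adjusted p = 5.123e-07). P2rx7, an ATP-gated ion channel (chromosome 5, 122643911 to 122691432), had 16.1, 19.6 and 24.6 CPM in the Prrx1 libraries, 4.29, 5.96 and 4.49 CPM with Snai1 and 5.89, 4.61 and 5.02 CPM with control plasmid. Its log2 fold change over control was 1.96 ± 0.17 (adjusted p = 5.613e-05). Its transcripts P2rx7-208 and P2rx7-203 also rose. P2rx7-208 had 4.87, 4.91 and 7.03 TPM in the Prrx1 libraries and 1.31, 1.38 and 0.702 TPM in the controls (adjusted p = 0.02843), and P2rx7-203 had 2.42, 3.39 and 3.90 TPM with Prrx1 and 0.873, 0.637 and 0.750 TPM with control plasmid (adjusted p = 0.02787).

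Vgf, a neuropeptide precursor, stood at 10.8, 9.40 and 13.6 CPM with Prrx1, 4.89, 5.57 and 6.76 CPM with Snai1 and 5.0, 4.04 and 4.25 CPM with control plasmid (log2 fold change over control 1.34 ± 0.17, adjusted p = 0.001139). Csrnp2, a nuclear protein of the cysteine-serine-rich family, had 39.2, 43.0 and 44.3 CPM with Prrx1, 22.1, 25.1 and 25.9 CPM with Snai1 and 19.6, 25.4 and 22.9 CPM with control plasmid (0.90 ± 0.10, adjusted p = 0.000557). In both genes each Prrx1 library exceeded every library of the other arms. The small GTPase gene Gem had 16.6, 16.5 and 17.6 CPM in the Prrx1 libraries, against 11.8, 10.7 and 10.1 CPM in the controls, and the centrosomal gene Fgfr1op 63.3, 55.6 and 65.2 CPM with Prrx1, against 38.2, 41.6 and 43.6 CPM in the controls. Arc, a neuronal immediate early gene, had 4.55, 4.89 and 5.58 CPM with Prrx1, 2.42, 2.01 and 1.91 CPM with Snai1 and 3.02, 2.90 and 2.87 CPM with control plasmid. Its test passed against both arms (adjusted p = 0.02561 against control and 0.006063 against Snai1). Washc2, a subunit of the WASH complex that sorts cargo at endosomes, moved least of this group, at 178.6, 186.2 and 211.7 CPM with Prrx1 and 155.9, 142.7 and 143.2 CPM with control plasmid (log2 fold change 0.38).

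Notch1, the receptor of that name, had 10.2, 11.4 and 10.2 CPM with Prrx1, 6.61, 7.13 and 5.16 CPM with Snai1 and 3.60, 5.18 and 4.39 CPM with control plasmid. It rose over control by a log2 fold change of 1.26 ± 0.16 (adjusted p = 0.001139). Over Snai1 the difference was 0.75 and did not pass the test (adjusted p = 0.096), although the Prrx1 libraries did not overlap the Snai1 libraries.

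**Figure D4:**
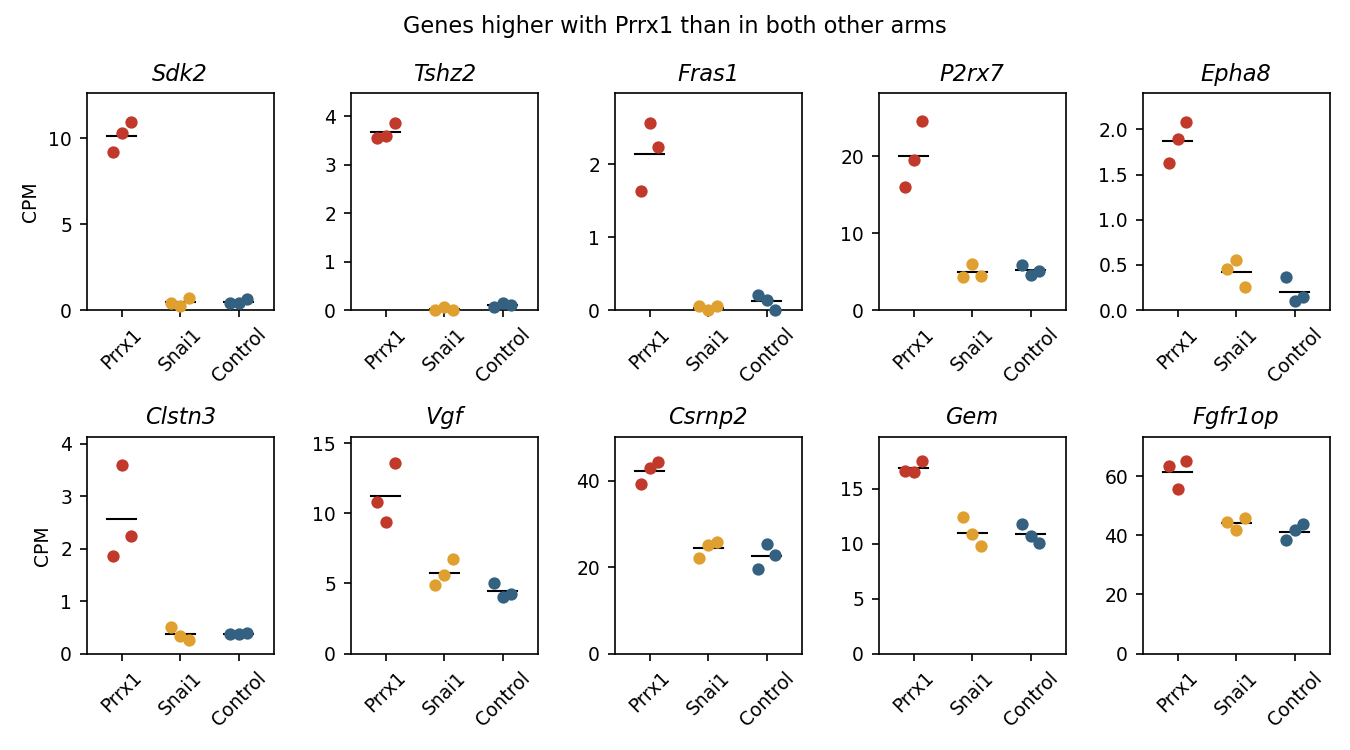
CPM of 10 genes in each library of the Prrx1 (red), Snai1 (yellow) and control plasmid (blue) arms; points are libraries, lines are means of 3, and each panel has its own axis from 0. In each of these panels every Prrx1 library lies above every Snai1 and control library, for Sdk2 at 9.21 to 10.9 CPM against 0.240 to 0.676 CPM in the other 6.

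Several genes that the controls hardly expressed appeared with the Prrx1 plasmid. These were singled out after their values were seen, as protein-coding genes called higher with a control mean under 0.5 CPM and at least 90% unique 31-mers. There were 32, of 306 tested genes of that kind at that control level, beside 1.94% of all genes called higher. A gene this low in the controls passes the filter mainly through libraries in which it is higher, so the count is a description only. Of the 32, 17 were also higher than in the Snai1 cells, beside 0.221% of all genes. In each of the 6 fits with 1 library left out 13 passed, beside 0.671% of all genes. Both counts use again the high Prrx1 values by which the 32 were chosen, so they are not independent evidence. The reverse case held 1 gene, Stmn4, which encodes a neuronal microtubule regulator: it had 0.281, 0.145 and 0.254 CPM in the Prrx1 libraries and 1.09, 1.90 and 2.15 CPM in the controls, and its Snai1 libraries, at 0.050 to 0.223 CPM, were as low as the Prrx1 ones.

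The most expressed of the 32 after Sdk2 was Tshz2, a teashirt zinc-finger transcription factor (chromosome 2, 169633013 to 170071816), with 63, 74 and 76 counts in the Prrx1 libraries and 1, 3 and 2 in the controls. The ratio of the summed counts, scaled for library size, was 37.3, with a 95% counting interval of 16.9 to 103. Fras1, an extracellular matrix protein of basement membranes, had 29, 53 and 44 counts with Prrx1 and 4, 3 and 0 with control plasmid (ratio 18.9, 8.91 to 48.0). Reln, which encodes the secreted protein reelin, had 15, 23 and 21 counts with Prrx1 and 0, 0 and 2 with control plasmid. Pamr1, Rbfox3 and Ltb had no count in any control library. Against a limit of 3 counts over the control group, Pamr1, a secreted protease-like protein, was at least 16.8-fold higher with Prrx1, Rbfox3, a neuronal splicing factor, at least 15.1-fold, and Ltb, the cytokine lymphotoxin beta, at least 14.4-fold. Intervals and limits of this kind cover counting error only.

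Others of the 32 with more than a handful of counts were Clstn3, a postsynaptic calsyntenin, with 33, 74 and 44 counts in the Prrx1 libraries and 7, 8 and 8 in the controls, and Tmem132b, with 31, 68 and 52 counts against 5, 12 and 7. Epha8, an ephrin receptor, had 29, 39 and 41 counts with Prrx1 and 7, 2 and 3 with control plasmid. Hydin, Ak7, Dnah2 and Dnah10, which serve motile cilia, were also among them. For Hydin the counts were 15, 20 and 30 with Prrx1 and 1, 3 and 1 with control plasmid. The absolute levels were low throughout: Tshz2, at 3.54, 3.59 and 3.87 CPM, and Sdk2 were the only ones of the 32 to exceed 3 CPM on average.

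In the list of synaptic and neuronal genes 6 of 18 tested members rose and 0 fell, beside 1.94% and 1.06% of all genes, with a median log2 fold change of 0.151. The list was chosen with these results known, so its count is not independent evidence. The 6 were Rbfox3, Reln, Sdk2, Vgf, the kinesin gene Kif5a and Arc. Without control replicate 1, and also with GC and length offsets added, 6 rose, beside 11.0% and 6.58% of all genes. Of the 6 fits that each left out 1 library, Reln, Sdk2 and Vgf passed in 6, Rbfox3 in 4, and Kif5a and Arc in 1. Of the 18, 5 were also higher than with Snai1, beside 0.221% of all genes. Members with a neuronal role that did not pass included Tubb3 (14.4 CPM with Prrx1 and 13.2 CPM with control plasmid on average), Snap25 (3.18 and 2.82 CPM), Mapt and Nlgn2. Kif5a, at 6.30, 6.20 and 7.51 CPM with Prrx1 and 4.59, 2.61 and 3.44 CPM in the controls, passed over control (adjusted p = 0.02832) but not over Snai1. Among 5 neural cell markers Rbfox3 was the 1 called gene, and their summed level was 21.45 to 27.62 CPM with Prrx1 and 21.07 to 22.94 CPM with control plasmid; the part of other cells in these values was not tested. Of 7 muscle markers 1 rose, Tnnt2, and their sum was 22.75 to 24.2 CPM with Prrx1 and 17.25 to 18.92 CPM with control plasmid, while the defining Myod1 and Myog were under 0.5 CPM. Of 2 tested keratinocyte markers 0 passed. The sum of the keratinocyte list was 8.431 to 8.916 CPM with Prrx1 and 5.796 to 7.4 CPM with control plasmid. In the list of Notch receptors, ligands and targets Notch1 was the 1 called member of 9. In the purinergic receptor list it was P2rx7, of 6.

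Lists tied to the known roles of Prrx1 and to the Hedgehog theme of the series held no called gene with all libraries. Over all genes 1.94% rose and 1.06% fell with edgeR, and 5.11% passed with DESeq2. In any 1 list of 7 to 31 genes, here and below, an edgeR count of 0 is near those shares. Such a count therefore does not set a list apart from all genes. Counts at an unadjusted p under 0.05, here and below, are given without the share over all genes, so they cannot be judged against it. Of 7 tested Hedgehog target genes 0 passed with edgeR, 0 had an unadjusted p under 0.05 and 0 passed with DESeq2; 1 of the 7 fell without control replicate 1, and 0 with the offsets added. Gli1, the transcriptional readout of the pathway, had 7.03, 7.27 and 5.28 CPM with Prrx1 and 6.05, 6.70 and 5.45 CPM with control plasmid, overlapping groups. The receptor gene Ptch1 had 28.2, 25.2 and 22 CPM with Prrx1 and 16.5, 25.7 and 25.4 CPM in the controls, where control replicate 1 was the low library. Of 31 tested pathway components, among them Gli2, Gli3 and Smo, 0 passed with edgeR, while 4 had an unadjusted p under 0.05 and 2 passed with DESeq2. Without control replicate 1, 2 of the 31 rose and 5 fell, beside 11.0% and 8.71% of all genes in that fit.

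Limb and craniofacial transcription factors gave 0 of 20 with edgeR and 0 with DESeq2, with an unadjusted p under 0.05 in 1 higher and 1 lower gene. Without control replicate 1, 1 rose and 2 fell. Genes reported as Prrx1 targets gave 0 of 9 with edgeR and 0 with DESeq2, with 2 lower at an unadjusted p under 0.05, and 2 fell without control replicate 1. Of these reported targets Tnc, a matrix glycoprotein, averaged 1279 CPM with Prrx1 and 1204 CPM with control plasmid, and Postn averaged 2.45 CPM with Prrx1 and 3.50 CPM with control plasmid. For mesenchymal genes 0 of 23 passed with edgeR, 5 were lower at an unadjusted p under 0.05 and 1 was lower with DESeq2. Without control replicate 1, 6 fell and 0 rose. The median log2 fold change of that list was -0.0974, against 0.0044 over all genes. Collagens gave 0 of 18 with edgeR and 0 with DESeq2, and 4 at an unadjusted p under 0.05. Matrix glycoproteins gave 0 of 24 with edgeR, 5 at an unadjusted p under 0.05 and 2 lower with DESeq2. Matrix proteases and their inhibitors gave 0 of 20 with edgeR, 9 lower at an unadjusted p under 0.05 and 2 lower with DESeq2, with a median log2 fold change of -0.162; without control replicate 1, 6 of the 24 glycoprotein genes and 6 of the 20 protease genes fell and 0 rose, beside 8.71% of all genes lower. Of the collagens 2 rose and 1 fell in that fit.

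Small leucine-rich proteoglycans, which bind collagen fibrils, held 3 called genes of 10, all lower, with a median log2 fold change of -0.192. Over all genes 1.06% fell. Biglycan (Bgn) had 1545, 1610 and 1331 CPM in the Prrx1 libraries and 1994, 2018 and 1996 CPM in the controls. No Prrx1 library reached a control, and the log2 fold change was -0.42 ± 0.07 (SE, adjusted p = 0.007663). Decorin (Dcn) had 135.5, 130.4 and 131.2 CPM with Prrx1 and 176.7, 171.2 and 159.0 CPM with control plasmid, and osteoglycin (Ogn) 12.1, 12.2 and 10.9 CPM with Prrx1 and 16.0, 16.4 and 19.6 CPM with control plasmid. All 3 also fell without control replicate 1 and with GC and length offsets, and in both of those fits lumican (Lum) fell as well. In those fits 8.71% and 5.99% of all genes were lower. The Snai1-transfected cells were as low, with means of 1645, 139.5 and 12.3 CPM for Bgn, Dcn and Ogn. Between Prrx1 and Snai1 0 of the 10 passed with edgeR or DESeq2, with 1 at an unadjusted p under 0.05. Over all genes 0.252% and 0.336% passed in that contrast, so a count of 0 among 10 is near those shares.

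Of 9 transition factors of the Snail, Twist and Zeb families, Snai2 fell, at 13.4, 12.1 and 12 CPM with Prrx1 and 14.4, 19.7 and 19.0 CPM with control plasmid (adjusted p = 0.04962), and 4 fell without control replicate 1. Over all genes 1.06% fell with all libraries and 8.71% without control replicate 1. Other called genes of the signalling lists were the TGF-beta feedback inhibitor Smad7, which rose (log2 fold change 0.27), the TGF-beta-induced matrix gene Tgfbi, which fell (-0.44), and among 29 immediate early genes Arc and Jund, which rose, and Myc, which fell (161.9, 166.7 and 143.7 CPM with Prrx1 and 188.2, 199.1 and 199.7 CPM with control plasmid). Zyx, a focal adhesion protein, had 637.9, 628.6 and 591.8 CPM with Prrx1 and 788.5, 788.8 and 771.6 CPM with control plasmid, the 1 called gene of 25 in the contractile list.

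The largest fall by amount of RNA was in the mitochondrial genome, which encodes subunits of the respiratory chain. Its 13 mRNAs took 1.074%, 1.482% and 1.141% of counts in the Prrx1 libraries and 2.448%, 2.033% and 2.073% in the controls, without overlap. The means were 1.23% ± 0.22 with Prrx1 and 2.19% ± 0.23 with control plasmid (SD, n = 3 each), a difference of -0.952 percentage points; the exact two-sided permutation test gave p = 0.1, the smallest that 3 against 3 libraries allow. Of the 13 genes 11 fell and 0 rose, beside 1.06% and 1.94% of all genes. Their median log2 fold change was -0.859, and 13 had an unadjusted p under 0.05. For example, mt-Nd1, a complex I subunit, had 1293, 1619 and 1436 CPM with Prrx1 and 3104, 2480 and 2565 CPM with control plasmid (log2 fold change -0.91 ± 0.11, adjusted p = 0.001094). Without control replicate 1, the highest of the controls, 9 of the 13 fell, and with the offsets added 10 fell and 1 rose. In those fits 8.71% and 5.99% of all genes were lower. By sequence 9 of the 13 share over 10% of their 31-mers with other annotated genes, such as mt-Co3 with 0.1% unique 31-mers, so single-gene levels are uncertain for them.

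The Snai1-transfected cells had the same low mitochondrial share, at 1.28%, 1.35% and 1.061% of counts. Between Prrx1 and Snai1 0 of the 13 genes passed with edgeR or DESeq2. Over all genes 0.252% and 0.336% passed in that contrast, so a count of 0 among 13 is near those shares. Of the 13, 1 had an unadjusted p under 0.05, and the median log2 fold change was -0.0132. By their share of counts the 3 controls are the high libraries here, and whether the Prrx1 plasmid has a part in this difference was not tested.

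**Figure D5:**
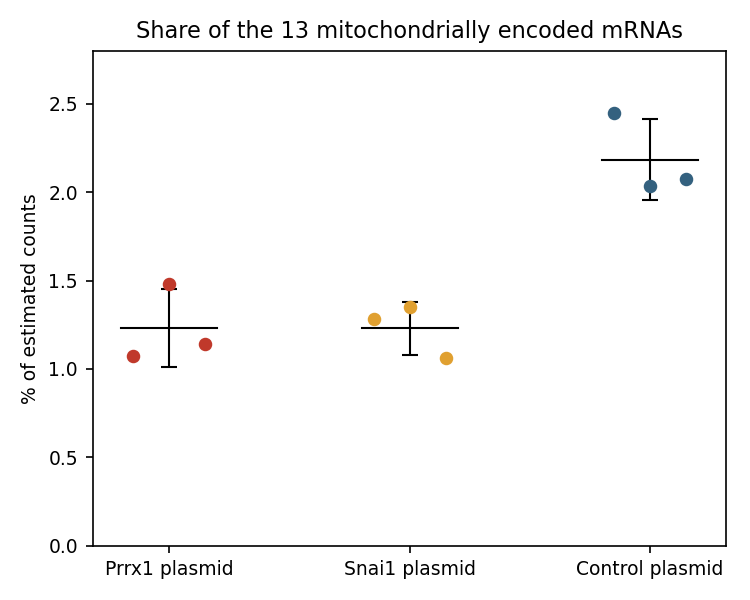
Percent of estimated counts taken by the 13 mitochondrially encoded mRNAs in each library of the Prrx1, Snai1 and control plasmid arms; points are libraries and bars are mean ± SD of 3. Prrx1 (1.074% to 1.482%) and Snai1 (1.061% to 1.35%) libraries lie together below the controls (2.033% to 2.448%).

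In several well-expressed genes that changed, the Snai1 libraries likewise lay near the Prrx1 ones. Hnrnpa0, an RNA-binding protein, had 515.0, 439.6 and 486.1 CPM with Prrx1 and 330.7, 277.2 and 294.2 CPM with control plasmid (log2 fold change 0.68 ± 0.08, adjusted p = 0.000595), and averaged 528.8 CPM with Snai1. The splicing factor Srsf9 had 112.0, 101.9 and 106.9 CPM with Prrx1 and 75.1, 64.1 and 66.5 CPM with control plasmid, and averaged 108.9 CPM with Snai1. In the list of SR proteins and hnRNPs 5 of 30 rose and 1, Ptbp1, fell, beside 1.94% and 1.06% of all genes. The median log2 fold change of the list was 0.121. There, 10 rose and 1 fell without control replicate 1, beside 11.0% and 8.71% of all genes. Nudt14, a nucleotide sugar hydrolase, fell, at 12.1, 10.5 and 11.0 CPM with Prrx1 and 24.5, 17.8 and 17.2 CPM with control plasmid, and averaged 10.7 CPM with Snai1.

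Of 45 nuclear genes of the respiratory chain 6 rose, beside 1.94% of all genes, 0 fell and 39 did not pass. Their summed level was 6295 to 6553 CPM with Prrx1 and 5541 to 6809 CPM with control plasmid, overlapping groups. Cox5b, a complex IV subunit, had 155.5, 150.4 and 143.2 CPM with Prrx1 and 120.6, 83.3 and 86.9 CPM with control plasmid (log2 fold change 0.63 ± 0.11, adjusted p = 0.01225). Control replicate 1 lay nearest to the Prrx1 libraries for this gene, and without it 29 of the 45 rose, beside 11.0% of all genes. With GC and length offsets added 14 rose and 3 fell, beside 6.58% and 5.99%, and the median log2 fold change was 0.0704. Mitochondrial ribosomal proteins gave 0 of 31 with edgeR, 6 at an unadjusted p under 0.05 and 1 with DESeq2. Without control replicate 1, 11 were higher, beside 11.0% of all genes. With the offsets 5 were higher and 1 lower, beside 6.58% and 5.99%.

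Of 25 p53 target genes 3 rose, the pro-apoptotic Bbc3 and Bax and the nuclease Aen, and 0 fell, with a median of 0.116. Over all genes 1.94% rose and 1.06% fell. Bbc3 had 16.1, 17.8 and 16.3 CPM with Prrx1 and 12.7, 10.7 and 11.1 CPM with control plasmid. The count was 6 without control replicate 1 and 8 with the offsets added, all higher. In those fits 11.0% and 6.58% of all genes were higher. The means with Snai1 (14.6 CPM for Bbc3, 165.0 for Bax and 102.4 for Aen) were near those with Prrx1 (16.7, 167.6 and 110.5 CPM). In the list of histone genes 3 of 17 rose, beside 1.94% of all genes. The cell cycle lists gave 0 of 26 replication genes with edgeR and DESeq2 (4 at an unadjusted p under 0.05) and 1 of 30 mitosis genes, Ube2c, which fell. Cholesterol and fatty acid synthesis lists gave 2 of 26 (Nsdhl and Msmo1) and 1 of 21 (Fads1), all lower. In the interferon list 2 of 38 rose, Oas1b and Isg20.

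Cytosolic ribosomal proteins changed in both directions, 8 of 71 higher and 5 lower, beside 1.94% and 1.06% of all genes. Of the 71, 60 share over 10% of their 31-mers with other genes. The offsets turned the balance: 41 rose and 10 fell without control replicate 1, whereas 18 rose and 22 fell when the offsets were added. Over all genes 11.0% rose and 8.71% fell without control replicate 1, and 6.58% and 5.99% with the offsets added. Near-identical copies moved against each other. Rps12l1 was listed at 0 counts in all 3 controls, with 135.5, 163.5 and 129.6 CPM in the Prrx1 libraries and a mean of 126.5 CPM with Snai1, while its copy Rps12-ps3 fell (556.1 CPM with Prrx1 and 942.6 CPM with control plasmid on average). Neither holds a 31-mer of its own. Summed over Rps12 and both copies, the family had 783.4, 770.8 and 725.5 CPM with Prrx1 and 1092, 922.0 and 963.4 CPM with control plasmid. Tpt1 and Tpt1-ps3 likewise moved in opposite directions, and their sum was 1899, 1904 and 1832 CPM with Prrx1 and 2200, 2037 and 2057 CPM with control plasmid.

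At the transcript level 372 of 40443 transcripts passed (0.920%), of which 212 rose (0.524%) and 160 fell (0.396%). Without control replicate 1, 1082 of 43310 passed (2.5%), 732 higher and 350 lower. The 372 belonged to 330 genes, and 272 of the 372 came from genes whose total was not called. In 30 genes transcripts passed in both directions, among them Prrx1, Actg1, Tpm1 and Vim. Retained-intron transcripts made up 36 of the 372 called and 8763 of those tested. Of the 372, 25 had 0 counts in all controls and 10 had 0 counts in all Prrx1 libraries. Transcript assignment error is not part of the deposited estimates, so these p-values are too small where transcripts are alike.

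The transcripts of largest change whose gene was not called were on or off. Actg1-204, of cytoplasmic gamma actin, had 918.7, 1018 and 856.3 TPM with Prrx1 and was listed at 0 in all controls, while the gene total did not pass (adjusted p = 0.14). It also had 540 to 765 TPM with Snai1, and 996 to 1160 TPM with and 1110 to 1440 TPM without doxycycline. It was listed at 0 in the Srebf2-transfected cells and in the Srebf2 controls. Homer3-201, of a postsynaptic scaffold protein, was listed at 0 with Prrx1 and had 7.69 to 11.7 TPM in the controls. It was at or near 0 with Snai1 and in the cells with and without doxycycline. In the Srebf2-transfected cells it had 21.8 to 25.6 TPM, against at most 0.781 TPM in the Srebf2 controls. Hnrnpl-202 was at or near 0 with Prrx1 and with Snai1, against 74.0 to 100 TPM in these controls and 65.2 to 97.4 TPM in the Srebf2-transfected cells. The Srebf2 controls held up to 35.9 TPM of it. Presence and absence of these transcripts thus also differed among arms without a Prrx1 plasmid; the cause was not tested. The same holds for Fau-208, listed at 0 with Prrx1 and at 62.8 to 136 TPM in the controls. In the Prrx1-transduced cells it had 859 to 1190 TPM with and 989 to 2070 TPM without doxycycline. With Snai1, and in the Egr1, Jun and Srebf2 transfections and their controls, it was listed at 0.

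The files held 2 sequences added to the mouse transcriptome, GFP and mScarlet. GFP rose, with 279.2, 279.4 and 297.5 CPM in Prrx1 libraries and 217.3, 185.0 and 184.8 CPM in controls (log2 fold change 0.54 ± 0.07, adjusted p = 0.001465), and averaged 261.3 CPM with Snai1. mScarlet had 12060, 11990 and 16200 CPM with Prrx1 and 13290, 9111 and 9869 CPM with control plasmid, overlapping groups that did not pass (adjusted p = 0.30).

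In the Prrx1-transduced cells, whose 6 libraries share none with the transfection, doxycycline raised Prrx1 to a mean of 3932 CPM, against 1008 CPM without doxycycline (log2 fold change 1.95, adjusted p = 3.077e-07), a smaller step than after transfection (difference 2.84, adjusted p = 8.973e-09). Of its transcripts Prrx1-202 had 884, 941 and 1083 TPM with doxycycline and 162, 183 and 228 TPM without, and Prrx1-201 had 38.9, 34.2 and 30.9 TPM with doxycycline and 41.1, 60.8 and 46.0 TPM without. In that experiment 844 of 13633 genes passed (6.19%), 471 higher (3.45%) and 373 lower (2.74%). The difference between the transfection and the doxycycline effect passed in 909 of 15378 genes (5.91%), positive in 474 (3.08%) and negative in 435 (2.83%). Sdk2 averaged 2.05 CPM with and 1.28 CPM without doxycycline and did not pass (adjusted p = 0.55), and the difference of its fold changes between the experiments passed (3.76, adjusted p = 0.0001181). Vgf and Arc likewise did not pass with doxycycline, and the differences, 2.06 and 1.62, did. Csrnp2 averaged 20.04 CPM with and 19.7 CPM without doxycycline, with a difference of 0.88 (adjusted p = 0.003471). Gli2 was the reverse: it averaged 62.7 CPM with and 22.3 CPM without doxycycline (log2 fold change 1.48, adjusted p = 5.878e-05), but 21.1 CPM with Prrx1 plasmid and 21.5 CPM with control plasmid (difference -1.51, adjusted p = 9.875e-06). Snai2 rose with doxycycline (120.4 CPM, against 51.1 CPM without) and fell after transfection (difference -1.72). Sdk2, Vgf, Arc, Csrnp2 and Snai2 were named because they were called after transfection, and the test of the difference uses those libraries again. A difference in the direction of that choice was therefore favoured in advance. Doxycycline itself differs between these groups, so it and the induced Prrx1 cannot be told apart. The mean fragment length implied by the deposited effective lengths was 186.6 to 188.6 bases with doxycycline and 162.1 to 174.9 bases without. In the Prrx1 and control transfection libraries it was 239.2 to 251.2 bases. The doxycycline fit and the fit of the difference carried no GC or length offsets, and the part of fragment length was not tested.

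The core TAATTA, which paired-class homeodomains can bind and which reads the same on both strands, was searched in the 250 bases before RefSeq starts (GRCm38.p6). The counts are of genes with a RefSeq promoter, each taken to hold the core if any of its promoters did. Of those that rose 2.5% of 160 held it, of those that fell 5.1% of 79, and of those higher than with Snai1 5.0% of 20. The share was 3.2% of 9880 among all genes tested and 5.7% of 27025 among all genes with a RefSeq promoter. The single match among the 20 was the promoter of Prrx1 itself, which also counts among the genes that rose. Prrx1 is the gene that the plasmid carried, so its place in these sets says nothing of its own promoter.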

How the data were processed

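Bulk mRNA libraries were sequenced from 30 samples in 10 groups of 3; the 3 Prrx1 and 3 control transfection libraries are reported here, with the 3 Snai1 libraries in the same fit and the 6 libraries of the doxycycline experiment in a fit of their own. The authors deposited kallisto estimated counts and TPM per transcript; kallisto 0.43.0 and the mm10 build are given in the submitters' processing notes, and the annotation release is not given in the sources used here. Of 118491 targets, 116816 matched GENCODE M21 identifiers with their version; 1673 others, which held 0.605% to 0.694% of counts, were left out. Deposited estimated counts were summed per gene and rounded to whole numbers. The Snai1 libraries held 18169803 to 19976799 estimated counts, the doxycycline libraries 7996355 to 12600603 and those without doxycycline 8506132 to 17129632, which makes the last comparison the least precise for low genes. Genes were filtered with filterByExpr (minimum count 10, minimum total 15), scaled by TMM and tested with edgeR 4.0.16 (quasi-likelihood, robust; R 4.3.3), with Benjamini-Hochberg adjustment over all genes or transcripts tested and a threshold of 0.05. CPM are TMM-scaled over the 9 libraries, except in the doxycycline experiment, where they are scaled by the library's total count alone. Fitted fold changes use a prior count of 0.125; all tests are two-sided. A gene's unique share is the percent of its 31-mers found in no other gene. TPM were used as deposited to describe transcripts, and with a pseudocount of 1 or 0.1 in a limma 3.58.1 alternative. Other alternatives used DESeq2 1.42.0, a floor of 5 CPM in 3 libraries, no filter, sample weights, GC and length offsets (mgcv 1.9.3), a replicate block, other sets of libraries, and each library left out; GC offsets without control replicate 1, GC offsets with the block, and DESeq2 without control replicate 1 were added after the data were seen. The scripts were tested on simulated data.

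Genes were named by a rule: the Prrx1, Hedgehog and added sequences, the called genes of largest change with at least 5 CPM in the higher group and no overlap, called members of gene lists, genes called only without control replicate 1, genes in which that library lies farthest from the rest, and the transcripts of largest change. Genes below that level, those higher than with Snai1 and those passing with every library left out were chosen after their values were seen. The libraries, lists and tests were all chosen with earlier results of these data known. The replicate numbers did not pair the samples: the deviations of same-numbered Prrx1 and control libraries correlated at 0.0236, 0.0877 and -0.0188.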

Additional observations from a re-analysis of the deposited data

Results flagged for a closer look

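For 26 of the genes chosen by the naming rule the effect of Prrx1 transfection differed from that of doxycycline in the Prrx1-transduced cells, by the interaction test over the 15 libraries of both experiments (adjusted p under 0.05); the fitted differences, transfection effect minus doxycycline effect, are on the log2 scale. In all, 909 of 15378 genes (5.91%) passed that test, 474 with a higher (3.08%) and 435 with a lower transfection effect (2.83%). Of the 26, all but Gli2 were called after transfection, most were named for that reason, and this test uses those libraries again. A difference in the direction of that choice was therefore favoured in advance. The fit carried no GC or length offsets.

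The Prrx1 fold change itself differed by 2.841. Neuronal and receptor genes higher with the Prrx1 plasmid differed by 3.762 (Sdk2), 3.629 (P2rx7), 2.061 (Vgf), 1.625 (Arc) and 1.589 (Kif5a). Rbfox3 had a fitted difference of 10.02, which depends on the prior count, since it was at 0 in the transfection controls and in the doxycycline libraries. P2rx7 averaged 0.1247 CPM with and 0.278 CPM without doxycycline, too low to be tested in that experiment alone. Csrnp2 differed by 0.8773 and the apoptosis gene Bbc3 by 0.8051.

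Genes of translation, RNA processing and mitochondria differed by 1.92 (Timm13), 1.589 (Nutf2), 1.07 (Rpl34), 1.029 (Cox5b), 0.8923 (Hnrnpa0), 0.8372 (Rpl3), 0.7885 (Ndufa8) and 0.7732 (Srsf9). These are genes in which the Prrx1 and Snai1 libraries were alike and both above the controls. Jund differed by 1.135, GFP by 0.8559, Smad7 by 0.6388 and Pdia6 by 0.4899.

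The difference was negative for Snai2 (-1.718), Gli2 (-1.509), Tgfbi (-1.353), Msmo1 (-0.7098) and Fads1 (-0.3786). Tgfbi averaged 16.4 CPM with Prrx1 plasmid and 22.2 CPM with control plasmid, but 27.1 CPM with and 14.2 CPM without doxycycline.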

How the results depend on the processing

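None of the 393 called genes was called in the opposite direction in any setting run. That count leaves out the direction of genes that lost the threshold in a setting. Without Prrx1 replicate 3, for example, 104 of the 393 were called again. The number of calls depended on the settings. Against control plasmid, leaving out 1 library gave 106 to 2639 genes; without a filter there were 597, with DESeq2 670, with only the 6 libraries 141, with sample weights 2580, with GC and length offsets 1298, with these and a replicate block 1367, with GC and length offsets and control replicate 1 left out 1683, with DESeq2 and control replicate 1 left out 2208, and among genes with at least 90% unique 31-mers 224. A replicate block alone gave 401. With all 30 libraries in the fit 335 passed, 168 higher and 167 lower. At the transcript level, leaving out 1 library gave 128 to 1082 calls, a replicate block 150, the stricter filter 677, limma on TPM 982 and DESeq2 1849, against 372. Against Snai1, leaving out 1 library gave 11 to 88 genes, the stricter filter 9 and the block 29, against 33. With doxycycline, leaving out 1 library gave 335 to 1250 genes and the block 843; for the difference of the effects the ranges were 591 to 1602, and 1058 with the block. The numbers do not pair the samples. Leaving out 1 library moved the mitochondrial difference to between -0.821 and -1.077 percentage points, and as a share of TPM it was -2.142.

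Among 2102 values of 99 named genes, 1675 kept their direction and side of the threshold, 308 lost the threshold, 118 gained it and 1 reversed: the Pcdhgc4 fold change became 3.573 with DESeq2 and control replicate 1 left out (adjusted p = 0.0144); the gene had 74.9 CPM in that control and 0.808 and 0.43 CPM in the other controls. Depth limits the genes near 0 in the controls, whose fold changes are known only as intervals or lower limits.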

Other observations

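Among protein-coding genes with at least 5 CPM that were called only without control replicate 1, those of largest rise were Tmem160, Romo1, Yjefn3, Ndufa2, Doc2g, Apoe, Rpl36a and Pfdn6. Ndufa2, a complex I subunit, had 71.8, 65.8 and 70.6 CPM with Prrx1 and 59.3, 32.2 and 35.4 CPM with control plasmid (log2 fold change 0.72 with it and 1.04 without it). Those of largest fall were Sycp1, Zfp449, Lyz2, Tshz3, Zmat1, Zfp808, Spin4 and Pakap. Spin4 had 3.32, 3.05 and 3.35 CPM with Prrx1 and 2.61, 6.13 and 5.16 CPM with control plasmid. Control replicate 1 lies toward the Prrx1 libraries in such genes by the way they were chosen.

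The genes in which control replicate 1 lay farthest above the other 8 libraries were led by Pcdhgc4, a protocadherin of the gamma cluster, and otherwise held mitochondrial genes (mt-Nd6, mt-Co2 and mt-Atp6) and Nudt14. For mt-Nd6 the levels were 130.2, 182.6 and 145.9 CPM with Prrx1 and 370.8, 265.1 and 280.1 CPM with control plasmid. Those farthest below were near-identical copies with at most 4.5% unique 31-mers, such as Pgam1-ps2 (63.7, 39.0 and 48.1 CPM with Prrx1 and 10.5, 50.6 and 44.7 CPM with control plasmid).

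Of all transcripts, 95 had at least 1 TPM in every Prrx1 library and under 0.1 TPM in every control, and 66 were the other way round. Of the 95, 36 also had at least 1 TPM in every Snai1 library; of the 66, 22 were also under 0.1 TPM in every Snai1 library. The causes were not tested.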
